A study of Mus musculus with 8 samples.

Results

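The genes described here are 41 genes of the endoplasmic reticulum (ER) and of the COPII vesicle coat, picked by name out of a count table of 54532 genes. They were grouped by role into 3 sensors and transcription factors of the unfolded protein response (UPR), 14 chaperones, co-chaperones and disulfide isomerases, 7 genes of ER-associated degradation (ERAD), 7 genes of the translocon, 9 genes of the COPII coat and its exit sites, and the ER-phagy receptor Retreg1. After edgeR's filter on low counts 40 of the 41 were tested, among 9855 tested genes. The remaining gene, Derl3, had 1 count in all WT libraries together and 5 in the Rank-knockout libraries.

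The study asked how the receptor RANK, encoded by Tnfrsf11a, shapes the intestinal epithelium of mothers in pregnancy and lactation. Intestinal epithelial cells were taken at lactation day 5 from 4 mice labelled WT and 4 labelled Rank-knockout, 1 library per mouse. Per the study's methods, Rank-knockout mice carry a floxed Rank allele cut by a Cre under the Villin promoter, which is active in epithelial cells of the gut, and controls were female littermates, all on a C57BL/6J background. The assay was 3′ mRNA-seq, which gives about 1 tag per transcript near its 3′ end whatever the transcript's length. Because the samples are bulk epithelium, fewer cells of a type and less RNA per cell cannot be told apart.

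Secreted and membrane proteins enter the ER through the Sec61 channel, fold there with the help of chaperones such as BiP, and receive disulfide bonds from the protein disulfide isomerases. Proteins that fail to fold are handed back to the cytosol by ERAD and degraded, while folded cargo leaves in vesicles with a COPII coat. When unfolded proteins build up, the sensors IRE1, ATF6 and PERK start the UPR: IRE1 splices Xbp1 mRNA, and XBP1 and ATF6 raise transcription of chaperone and ERAD genes. In enterocytes the same route carries brush border enzymes, and enlarged COPII carriers take chylomicrons out of the ER. A count per gene does not show splicing of Xbp1 or cleavage of ATF6.

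XBP1 and ATF6 act through short promoter elements, so the promoters of the members were searched for the letters of 3 such elements on both strands, from 250 bases before to 50 bases after the RefSeq start. The ER stress response element (ERSE) was searched as CCAAT, any 9 bases, then CCACG. The second form, ERSE-II, was searched as ATTGG, any 1 base, then CCACG, and the UPR element (UPRE) as TGACGTGG. ERSE, ERSE-II and UPRE share the letters CCACG on one or the other strand, and no matched positions overlapped in a member. Promoters were found for 35 of the 41 members, of which 9 held ERSE, 2 held ERSE-II and 2 held UPRE, 13 in all. Of the 27025 genes in the RefSeq table, 0.137% held ERSE, 0.0444% held ERSE-II, 0.714% held UPRE and 0.884% held any of the 3. The matches lay in 8 of 12 chaperone promoters, 3 of 6 ERAD promoters, 2 of 9 COPII promoters and 0 of 5 translocon promoters. The lines show a selection of the matches, 5′ to 3′ on the gene's strand with the match in capitals, from the RefSeq table (GRCm38.p6).
Hspa5, chr2:34772020-34772048, plus strand: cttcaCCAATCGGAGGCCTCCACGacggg
Hsp90b1, chr10:86705633-86705661, minus strand: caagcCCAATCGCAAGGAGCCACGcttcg
Pdia6, chr12:17266486-17266514, plus strand: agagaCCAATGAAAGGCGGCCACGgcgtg
Creld2, chr15:88819515-88819543, plus strand, reverse match: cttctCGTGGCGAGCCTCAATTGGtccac
Syvn1, chr19:6046527-6046555, plus strand: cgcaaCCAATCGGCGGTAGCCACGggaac
Herpud1, chr8:94386372-94386392, plus strand, ERSE-II: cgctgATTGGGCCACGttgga
Sec23a, chr12:59011999-59012016, minus strand, UPRE: cccttTGACGTGGcagag
Sec24d, chr3:123267465-123267482, plus strand, UPRE: gcgccTGACGTGGcacta
Counting the RefSeq start as 0, the matches began at -65 in Hspa5, -212 in Hsp90b1, -98 in Pdia6, -126 in Creld2, -44 in Syvn1, -52 in Herpud1, 6 in Sec23a and -26 in Sec24d. Those of Hspa5, Sec23a and Sec24d fell within the GENCODE span of their gene, and the others upstream of it. Hsp90b1 held a further ERSE at -107, and Calr, Canx, Dnajc3, Dnajb11 and Derl3 also held a match. Matches stood before genes of both directions. Of the 12 tested members with a match 3 were called higher and 3 lower (median log2 fold change 0.29), and of the 22 with a promoter but no match 4 were called higher and 4 lower (median 0.14). Of all 9855 tested genes 15.8% were called higher and 14.6% lower.

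Total counts ran from 1530781 to 4335653 per library, so most WT libraries were shallower than the Rank-knockout ones. WT replicate 2 had the highest total, and stood apart in the members too, with the lowest WT value in 20 of 40 and the highest in 12. Other libraries were often extreme as well. WT replicate 3 had the highest WT value in 18 members, and Rank-knockout replicate 4 the highest Rank-knockout value in 19. Values are given as CPM, counts scaled to a common library size with TMM factors, and changes as log2 fold changes, Rank-knockout minus WT, with their SE. The adjusted p is that of edgeR's quasi-likelihood test with Benjamini-Hochberg adjustment over all 9855 genes, and a member was called higher or lower where it was under 0.05. Tnfrsf11a had 61 to 196 counts in the WT and 79 to 179 in the Rank-knockout libraries, with a fold change of -0.67 on the log2 scale (SE 0.22, edgeR adjusted p = 0.032). Its 3′ tags need not lie in the deleted stretch, and where they lie was not tested. All 8 epithelial markers were present, with a summed level of 10970 to 12190 CPM in WT and 8546 to 10770 CPM in Rank-knockout, and 1 was called higher (Krt18) and 3 lower (Epcam, Vil1 and Krt20). Epcam, found throughout gut epithelium, was at 2045 ± 210 CPM in WT libraries against 1495 ± 109 CPM in Rank-knockout (SD, n = 4, as for all ± values), and Cdh1, the cadherin of epithelial junctions, at 4599 ± 616 against 4520 ± 558 CPM.

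Over the whole set 10 members were called higher in Rank-knockout and 7 lower of the 40 tested. The background over all tested genes was 15.8% called higher and 14.6% called lower. The calls split by role. All 10 calls in chaperones and the translocon were higher, and all 7 in ERAD, the COPII coat and Retreg1 were lower. The 4 and 4 libraries did not overlap in 7 members that were higher and 5 that were lower, against 14.4% and 14.3% of all tested genes. The median log2 fold change was 0.21 over the members and 0.02 over all tested genes. Scaling by library totals moved the median of all tested genes by 0.20 and gave 18 higher and 4 lower. Library sizes that skip the 50 genes with most counts moved it by 0.13 and gave 14 higher and 4 lower. The count called higher was 4 without WT replicate 4 and 6 without Rank-knockout replicate 1, and the count called lower was 4 without Rank-knockout replicates 1 or 3. Every one of the 17 called members kept its sign under all 17 alternatives. Against the direction of its group edgeR, DESeq2 and limma-voom each called 0 members on all libraries at full depth. At an unadjusted edgeR p under 0.05 there was 1, the chaperone gene Dnajb9, and 0 in ERAD, the translocon and COPII. Dnajb9 was called lower by edgeR without WT replicate 2 (-0.75) and with libraries thinned to the shallowest total (-0.67).

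**Figure D1:**
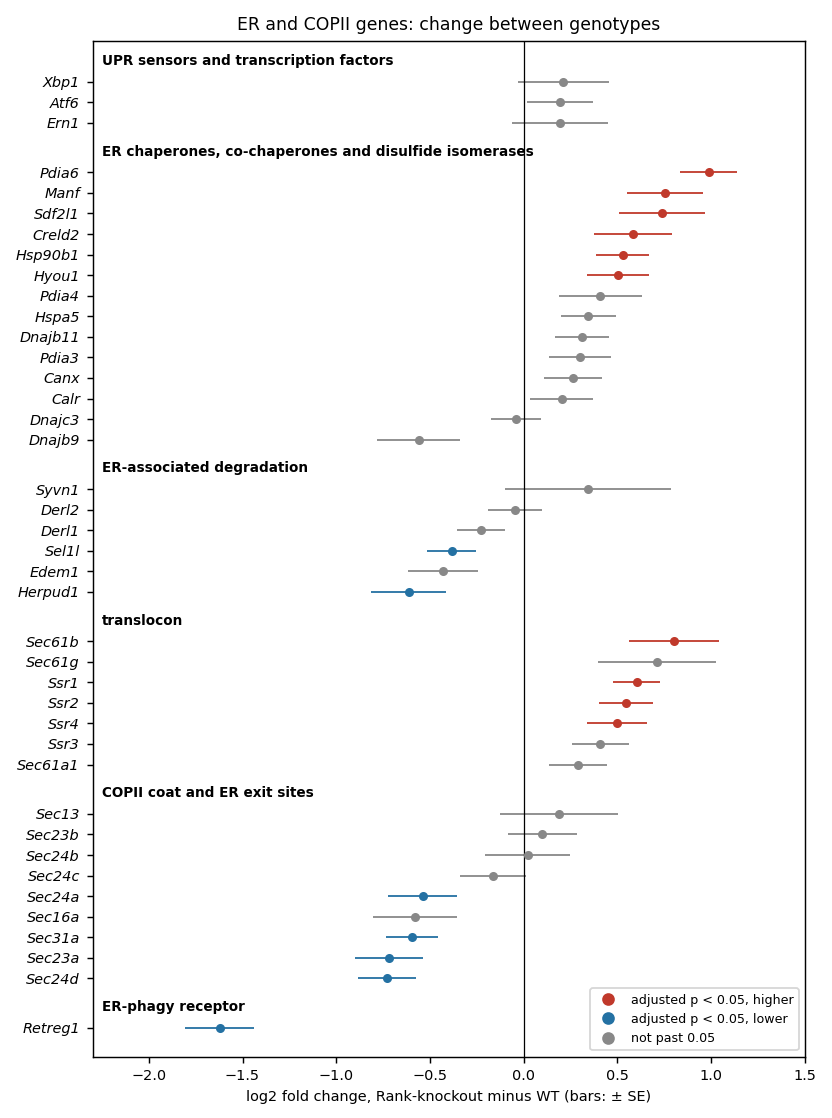
Log2 fold change (x axis, Rank-knockout minus WT, with ± SE bars) of the 40 tested members, grouped by role; red and blue points passed edgeR's adjusted p under 0.05. Red points lie in the chaperone and translocon groups and blue points in the ERAD, COPII and ER-phagy groups, from 0.99 for Pdia6 to -1.62 for Retreg1.

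None of the 3 UPR sensors and transcription factors was called by edgeR, DESeq2 or limma-voom, and 0 had an unadjusted edgeR p under 0.05. Xbp1, the transcription factor made active by IRE1, was at 131.5, 54.2, 140 and 138 CPM in WT replicates 1 to 4. In Rank-knockout it was at 119, 128, 151 and 133 CPM. Without the low WT replicate 2 the WT values lay inside the Rank-knockout range, and the log2 fold change went from 0.21 (SE 0.24, edgeR adjusted p = 0.54) to -0.05. Atf6, the sensor that is cut in the Golgi to give a transcription factor, was at 27.3 to 36.2 CPM in WT and 30.0 to 40.5 CPM in Rank-knockout, with a log2 fold change of 0.19 (SE 0.17). Ern1, which encodes IRE1α, was at 8.88 to 18.0 CPM in WT and 10.9 to 17.4 CPM in Rank-knockout, also with 0.19 (SE 0.26). The libraries of both genes overlapped between genotypes, though 3 of 4 Rank-knockout libraries lay above every WT library for Atf6. The change of Atf6 was 0.10 without WT replicate 4, and that of Ern1 was 0.05 without WT replicate 3.

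Of the 14 chaperones, co-chaperones and disulfide isomerases 6 rose and none fell, with a median log2 fold change of 0.38. This is 42.9% called higher, beside 15.8% of all tested genes. Their summed level ran from 4944 to 6892 CPM in WT and from 7325 to 8044 CPM in Rank-knockout. The count was 5 without WT replicate 2, 3 without WT replicate 4 and 11 with library totals.

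Pdia6 (chromosome 12, 17266545 to 17284770, plus strand), a disulfide isomerase that also dampens IRE1 signalling, had the largest rise of the members. It was at 206, 198, 212 and 142 CPM in WT and at 426, 330, 371 and 379 CPM in Rank-knockout. Every Rank-knockout library lay above every WT library, and the fold change was 1.98 (log2 0.99, SE 0.15, edgeR adjusted p = 0.00042). Its promoter holds the ERSE match shown above.

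Hsp90b1 (chromosome 10, 86690209 to 86705509, minus strand) encodes GRP94, the HSP90 of the ER, which folds integrins and Toll-like receptors. It was at 598, 446, 615 and 511 CPM in WT and at 827, 803, 734 and 760 CPM in Rank-knockout. The groups did not overlap (log2 fold change 0.53, SE 0.14, edgeR adjusted p = 0.011). Manf (chromosome 9, 106838312 to 106891979, minus strand), a small secreted protein that binds BiP, was at 67.1, 38.5, 83.3 and 66.6 CPM in WT and at 87.5, 111, 104 and 121 CPM in Rank-knockout. Its groups did not overlap either (0.75, SE 0.20, edgeR adjusted p = 0.011), and the change was 0.54 without WT replicate 2, its lowest library. Pdia6, Hsp90b1 and Manf were called higher under each of the 17 alternatives.

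The other 3 rises were less firm. Hyou1, an ER chaperone of the HSP110 kind that releases ADP from BiP, was at 46.4 to 66.5 CPM in WT and 66.1 to 90.0 CPM in Rank-knockout (log2 fold change 0.50, SE 0.17, edgeR adjusted p = 0.032). Sdf2l1, a partner of the BiP co-chaperone Dnajb11, was at 14.2 to 28.0 CPM in WT and 27.0 to 38.8 CPM in Rank-knockout (0.74, SE 0.23, edgeR adjusted p = 0.023). Creld2, an ER stress gene with disulfide isomerase activity, was at 13.7 to 18.0 CPM in WT and 19.3 to 27.4 CPM in Rank-knockout (0.58, SE 0.21, edgeR adjusted p = 0.042). Only Creld2 of these 3 had groups that did not overlap, yet its call was kept in 9 of 17 alternatives and lost without any one WT library (log2 fold change 0.51 to 0.62) and without Rank-knockout replicates 2 (0.53) or 4 (0.50). It was lost as well with DESeq2 (0.57, DESeq2 adjusted p = 0.068) and with no filter on low counts (0.62, edgeR adjusted p = 0.064). Hyou1 kept its call in 12 and lost it without WT replicates 2 (0.41) or 4 (0.41) and without Rank-knockout replicates 1 (0.42) or 2 (0.53), and with libraries thinned to the shallowest total (0.40). Sdf2l1 kept it in 14 and lost it without WT replicates 2 (0.56) or 4 (0.62) and without Rank-knockout replicate 1 (0.64).

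Hspa5, which encodes BiP, the main HSP70 of the ER and the usual readout of the UPR, was not called. It was at 2659, 3180, 2672 and 2259 CPM in WT and at 3328, 3616, 3565 and 3166 CPM in Rank-knockout. The highest WT library, replicate 2, exceeded the lowest Rank-knockout library by little. The change was 0.34 on the log2 scale (SE 0.15, edgeR adjusted p = 0.087), and it passed the threshold without WT replicate 2 (0.43, edgeR adjusted p = 0.045) and with both scalings that moved all genes. Relative to the shift of all genes of 0.20, the 0.54 that library totals gave for Hspa5 is close to the change on TMM scaling.

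The remaining 7 folding genes were not called either. The lectin chaperones Calr and Canx, which hold glycoproteins during folding, changed by 0.20 (SE 0.17) and 0.26 (SE 0.15) on the log2 scale. Pdia3, the disulfide isomerase that works with both, changed by 0.30 (SE 0.16), and Pdia4 by 0.41 (SE 0.22, with 35.9 to 92.2 CPM in WT and 68.0 to 98.7 CPM in Rank-knockout). Without WT replicate 2 Pdia4 passed the threshold at 0.65, and without WT replicate 4 it was at 0.19. Leaving out WT replicate 4 put Calr at 0.04, Canx at 0.15 and Pdia3 at 0.15. With library totals Canx (0.46) and Pdia3 (0.50) passed the threshold. Dnajb11, a BiP co-chaperone, was at 60.3 to 78.5 CPM in WT and at 85.9 to 93.1 CPM in Rank-knockout, which did not overlap, with a change of 0.31 on the log2 scale (SE 0.14, edgeR adjusted p = 0.11). Dnajc3, a co-chaperone of BiP, had a log2 fold change of -0.04 (SE 0.13), well within its SE. Dnajb9, a co-chaperone that returns BiP to IRE1, went the other way from the group with -0.56 (SE 0.22, edgeR adjusted p = 0.067). It was at 24.8 to 53.3 CPM in WT and 19.8 to 26.8 CPM in Rank-knockout. The gene was called lower without WT replicate 2 (-0.75) and with libraries thinned to the shallowest total (-0.67). Without WT replicate 3 its change was -0.35.

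**Figure D2:**
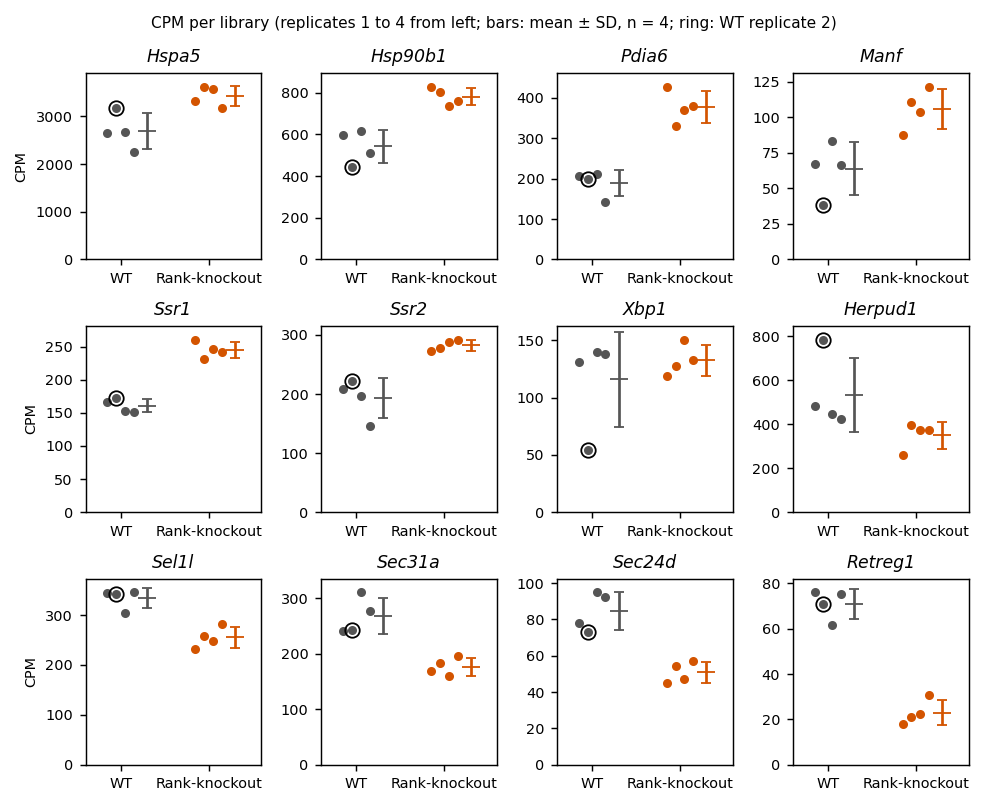
CPM (y axis, from 0) of 12 members in each library, WT replicates 1 to 4 in grey and Rank-knockout replicates 1 to 4 in orange, with the mean ± SD (n = 4) beside them and a ring on WT replicate 2. The genotypes do not overlap for Hsp90b1, Pdia6, Manf, Ssr1, Ssr2, Herpud1, Sel1l, Sec31a, Sec24d and Retreg1, and the ringed library lies far from the other WT values for Xbp1 and Herpud1.

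The mean of all 7 translocon members was above that of WT, and 4 of them rose past the threshold, 57.1% beside 15.8% of all tested genes. The median log2 fold change was 0.54, and the summed level ran from 1876 to 2684 CPM in WT and from 2701 to 3037 CPM in Rank-knockout. The count was 4 without WT replicate 2, 1 without WT replicate 4, 2 without Rank-knockout replicate 1 and 7 with library totals.

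Ssr1 to Ssr4 encode the subunits of the translocon-associated protein (TRAP) complex, which helps some signal peptides open the channel. Ssr1 (chromosome 13, 37966605 to 37994217, minus strand) was at 167, 173, 153 and 152 CPM in WT and at 260, 231, 246 and 241 CPM in Rank-knockout. The WT and Rank-knockout libraries were each close together and did not overlap, and the change was 0.60 on the log2 scale (SE 0.13, edgeR adjusted p = 0.0025), with the call kept in all 17 alternatives. Ssr2 was at 209, 223, 196 and 146 CPM in WT and at 272, 278, 288 and 292 CPM in Rank-knockout, again apart (0.54, SE 0.14, edgeR adjusted p = 0.010), and lost its call only without WT replicate 4 (0.40, edgeR adjusted p = 0.059). Ssr4, on the X chromosome, was at 140 to 224 CPM in WT and 209 to 263 CPM in Rank-knockout (0.50, SE 0.16, edgeR adjusted p = 0.027), with 1 WT library, replicate 2, inside the Rank-knockout range. That call was lost without WT replicates 1 (0.40), 3 (0.47) or 4 (0.38) and without Rank-knockout replicates 1 (0.48), 2 (0.50) or 3 (0.46). Ssr3 was at 80.8 to 117 CPM in WT and 110 to 147 CPM in Rank-knockout (0.41, SE 0.15, edgeR adjusted p = 0.054), and it passed the threshold in 7 of 17 alternatives.

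The channel itself has 3 subunits. Sec61a1, the pore, was at 1375, 1955, 1573 and 1299 CPM in WT and at 2018, 1833, 1707 and 2028 CPM in Rank-knockout (log2 fold change 0.29, SE 0.16, edgeR adjusted p = 0.17). The change of Sec61a1 was 0.18 without WT replicate 4. It passed the threshold with library totals (0.49) and with the 50 most abundant genes left out of the library sizes (0.42). Sec61b was at 44.5, 24.6, 62.2 and 33.3 CPM in WT and at 79.4, 62.7, 56.7 and 79.4 CPM in Rank-knockout. It was called higher (0.80, SE 0.24, edgeR adjusted p = 0.019) with 1 WT library above the lowest Rank-knockout library, and the call was lost without WT replicate 4 (0.70) or Rank-knockout replicate 1 (0.74). Sec61g, with 3.801 to 10.9 CPM in WT and 10.1 to 15.03 CPM in Rank-knockout, gave 0.71 (SE 0.31, edgeR adjusted p = 0.098). WT replicate 2 was the lowest WT library of both small subunits, and without it the changes were 0.58 for Sec61b and 0.35 for Sec61g. Near-identical copies of both genes exist in the genome, and the copies held 9 counts for Sec61b and 8 for Sec61g over all libraries.

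Of the 6 tested ERAD members 2 fell and none rose, with a median log2 fold change of -0.31. This is 33.3% beside 14.6% of all tested genes called lower, but on few genes, and the count was 1 without WT replicates 1 or 4 or Rank-knockout replicate 2, and 0 without Rank-knockout replicates 1 or 3. Herpud1 (chromosome 8, 94386438 to 94395377, plus strand), a stress-induced scaffold of the ERAD complex, was at 482, 785, 446 and 423 CPM in WT and at 260, 397, 372 and 373 CPM in Rank-knockout. The groups did not overlap, but WT replicate 2 was far above the other WT libraries. The change was -0.61 on the log2 scale (SE 0.20, edgeR adjusted p = 0.030), and without that library it was -0.37 (edgeR adjusted p = 0.087). The call was also lost without Rank-knockout replicates 1 (-0.49) or 3 (-0.64).

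Sel1l, the adaptor that holds the ERAD ubiquitin ligase complex together, was at 343, 342, 303 and 345.5 CPM in WT and at 233, 259, 248 and 283 CPM in Rank-knockout. All WT libraries were above all Rank-knockout libraries (-0.38, SE 0.13, edgeR adjusted p = 0.034). Its call was kept in 9 of 17 alternatives and was lost without WT replicates 1 (-0.40) or 4 (-0.40) and without Rank-knockout replicates 1 (-0.34), 2 (-0.39) or 3 (-0.37). Both ERAD calls were lost with library totals (Herpud1 -0.42, Sel1l -0.19) and without the 50 genes with most counts in the library sizes, and that of Sel1l with no filter (-0.35).

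Syvn1, the ubiquitin ligase HRD1 that Sel1l binds, was at 44.5, 10.6, 43.7 and 55.9 CPM in WT and at 48.8, 39.4, 33.3 and 63.8 CPM in Rank-knockout. WT replicate 2 was again far below the rest, and the log2 fold change of 0.34 (SE 0.44) became -0.04 without it. Edem1, a lectin that marks glycoproteins for ERAD, was at 39.0 to 59.4 CPM in WT and 29.7 to 42.7 CPM in Rank-knockout (-0.43, SE 0.19, edgeR adjusted p = 0.090), and passed the threshold without WT replicate 2 (-0.56). Derl1 and Derl2, membrane proteins of the exit channel, changed by -0.23 (SE 0.13) and -0.05 (SE 0.15), and the second was 0.05 without WT replicate 2. The counts of Derl3 were 0, 1, 0 and 0 in WT and 1, 4, 0 and 0 in Rank-knockout, too few for a statement on it at this depth.

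Of the 9 tested COPII members 4 fell and none rose, 44.4% beside 14.6% of all tested genes, with a median log2 fold change of -0.54. The count was 5 without WT replicate 2 and 3 with library totals, and it ran from 3 to 5 over all alternatives. SEC23 and SEC24 form the inner coat, in which SEC24 binds cargo, and SEC13 with SEC31 forms the outer cage, while SEC16 marks the exit site.

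Sec31a (chromosome 5, 100361649 to 100416234, minus strand), the outer coat gene, was at 240, 243, 311 and 276 CPM in WT and at 169, 183, 160 and 196 CPM in Rank-knockout. The groups did not overlap (log2 fold change -0.60, SE 0.14, edgeR adjusted p = 0.0046). Sec24d (chromosome 3, 123267455 to 123365641, plus strand) was at 78.1, 73.2, 94.9 and 92.5 CPM in WT and at 45.0, 54.4, 47.2 and 56.9 CPM in Rank-knockout. Its groups were apart as well (-0.73, SE 0.15, edgeR adjusted p = 0.0027). Sec23a (chromosome 12, 58958383 to 59012017, minus strand) was at 168, 136, 234 and 217 CPM in WT and at 103, 105, 102 and 145.5 CPM in Rank-knockout. One Rank-knockout library, replicate 4, lay inside the WT range (-0.72, SE 0.18, edgeR adjusted p = 0.0077). All 3 calls were kept in each of the 17 alternatives, and Sec23a and Sec24d are the members with a UPRE match in their promoters.

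Sec24a was at 88.4, 82.6, 94.9 and 137 CPM in WT and at 56.9, 71.3, 60.7 and 86.7 CPM in Rank-knockout, with 1 overlapping library (-0.54, SE 0.19, edgeR adjusted p = 0.037). This call was kept in 10 of 17 alternatives and lost without WT replicates 3 (-0.58) or 4 (-0.39) and without Rank-knockout replicates 1 (-0.45), 2 (-0.56) or 3 (-0.49), and under both scalings that moved all genes (-0.34 and -0.41). Sec16a, at 23.1 to 40.6 CPM in WT and 16.8 to 23.6 CPM in Rank-knockout, gave -0.58 (SE 0.23, edgeR adjusted p = 0.062) and passed without WT replicates 1 (-0.71) or 2 (-0.74). The other 4 COPII members had changes near 0: Sec23b 0.10 (SE 0.18), Sec24b 0.02 (SE 0.23), Sec24c -0.16 (SE 0.18) and Sec13 0.19 (SE 0.31). Sec13, which also serves in nuclear pores, was at 65.8, 26.9, 93.6 and 78.6 CPM in WT, and its change became -0.12 without the low replicate 2.

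**Figure D3:**
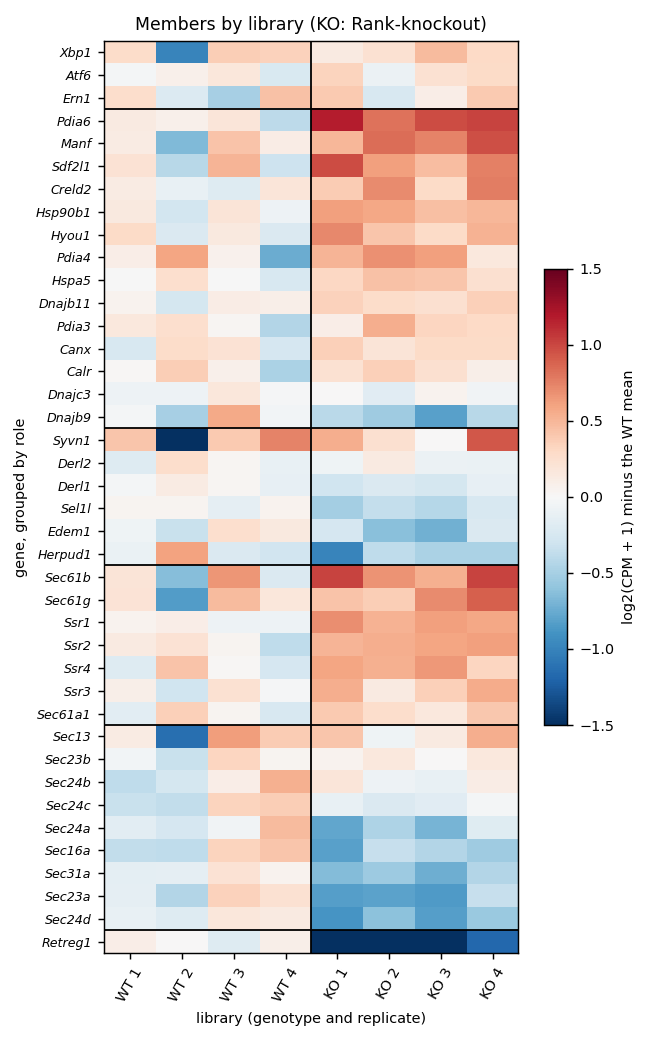
Level of each tested member (y axis, grouped by role) in each library (x axis), as log2(CPM + 1) minus the WT mean, red above and blue below it, on a scale from -1.5 to 1.5. The 4 Rank-knockout columns are red for Pdia6, Ssr1 and Ssr2 and blue for Sec31a, Sec24d and Retreg1, and the WT 2 column is dark blue for Xbp1, Syvn1, Sec13 and Sec61g.

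The COPII genes come as near relatives, so the ratio of the paralogs was compared within each library, which does not depend on scaling between libraries. The log2 ratio of Sec23a to Sec23b was 2.46, 2.48, 2.58 and 2.75 in WT and 1.69, 1.61, 1.71 and 2.07 in Rank-knockout. It was lower in all 4 Rank-knockout libraries than in any WT library, by 0.80 (exact two-sided permutation p = 0.029, the smallest that 70 assignments can give; 0.064 adjusted over 9 pairs). The ratio of Sec24a to Sec24b was lower by 0.56 and that of Sec24c to Sec24d higher by 0.60 in Rank-knockout, each without overlap and with the same exact p. The GTPase pair that starts the coat gave the same picture, with the log2 ratio of Sar1a to Sar1b higher by 0.54 (exact p = 0.029). None of these passed 0.05 after adjustment (0.064 for each of the 4).

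The other 5 pairs overlapped between genotypes. The log2 ratio of Derl1 to Derl2 differed by -0.20 (exact permutation p = 0.057). The ratio of Hspa5 to Hsp90b1 differed by -0.18 (p = 0.49, exact), with 2.84 in WT replicate 2 against 2.12 to 2.15 in the other WT libraries. Calr to Canx differed by -0.05 and Ern1 to Ern2 by 0.04, where Ern2 is the IRE1 gene of mucous epithelia. Sec16a to Sec16b differed by 0.16, with both genes at lower means in Rank-knockout (Sec16b -0.74, SE 0.23, edgeR adjusted p = 0.022).

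**Figure D4:**
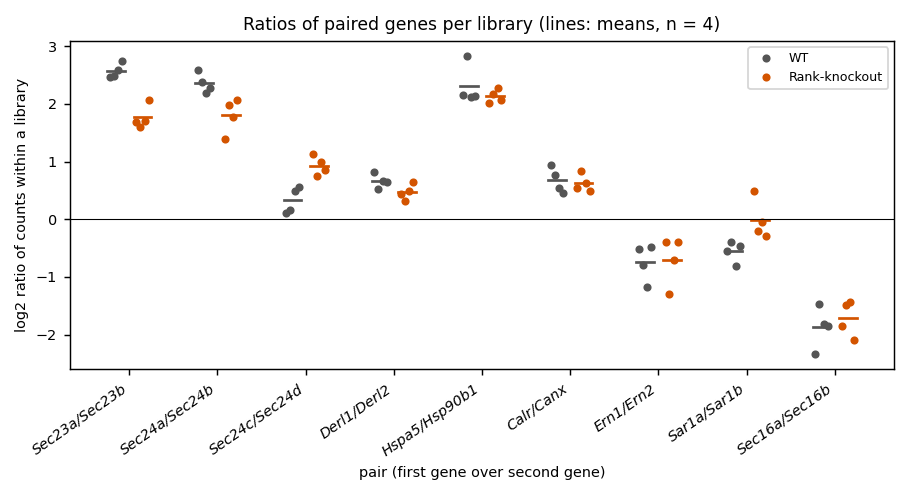
Log2 ratio of the counts of 2 genes within a library (y axis) for 9 pairs (x axis), with WT libraries in grey, Rank-knockout libraries in orange and lines at the means (n = 4). WT and Rank-knockout points are apart for Sec23a/Sec23b, Sec24a/Sec24b, Sec24c/Sec24d and Sar1a/Sar1b, and overlap for the other 5 pairs.

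Retreg1 (chromosome 15, 25843180 to 25973687, plus strand), also called Fam134b, is a receptor that bends ER membrane and delivers it to autophagosomes. It was at 76.0, 71.0, 61.5 and 75.2 CPM in WT and at 18.0, 21.0, 22.5 and 30.6 CPM in Rank-knockout. The highest Rank-knockout library was at less than the lowest WT library, and the level in Rank-knockout was 0.325 of that in WT. This was the largest change of the set (log2 fold change -1.62, SE 0.18, edgeR adjusted p = 0.000101), and it ran from -1.80 to -1.42 over the 17 alternatives. Several RefSeq promoters are listed for Retreg1, and none of them held any of the 3 elements.

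Other genes of the pathway, from 7 lists of 200 genes that hold no member, were set beside the members. Of 183 tested, 24 rose and 23 fell, with a median log2 fold change of -0.03, so that 13.1% were called higher and 12.6% lower, beside the background of 15.8% and 14.6%. Where none of a list rose, or none fell, DESeq2 and limma-voom also called 0, and 0 had an unadjusted edgeR p under 0.05 in that direction. In other folding and glycan-processing genes 8 of 32 rose and 1 fell, with 5 rising without WT replicate 4, 4 without Rank-knockout replicate 1 and 16 with library totals. Without WT replicate 2 the count that fell was 3. Agr2, a disulfide isomerase of mucus-secreting cells, rose by 0.85 on the log2 scale, Mogs, the first glucosidase of glycan trimming, by 0.79, and Dnajc10, a reductase of the ER, by 0.68. The gene that fell was P4hb (-0.62, SE 0.15, edgeR adjusted p = 0.0054, from 3186 ± 171 to 2069 ± 296 CPM), the disulfide isomerase that is also a subunit of the microsomal triglyceride transfer protein.

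In the wider entry machinery (signal recognition, signal peptidase, oligosaccharyltransferase and the ER membrane complex) 11 of 36 genes rose and none fell, 30.6% beside 15.8% of all tested genes, with a median log2 fold change of 0.32 (7 rose without WT replicate 1, and 20 with library totals). Sec11c, of the signal peptidase, rose by 0.81, Ddost, of the oligosaccharyltransferase, by 0.59, and Emc6, of the ER membrane complex, by 0.66. In other ERAD genes 4 of 27 were called lower and none higher, 14.8% beside 14.6% of all tested genes, among them Os9, a lectin of the SEL1L complex (-0.72), Fam8a1 (-0.67) and Ubxn6 (-0.68).

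In other COPII and cargo genes 5 of 36 were called higher and 6 lower, 13.9% and 16.7% beside 15.8% and 14.6% of all tested genes. Without WT replicate 2 the count called lower was 12. The count that rose was 3 without WT replicates 3 or 4. Those that rose included the cargo receptors of the p24 family Tmed9 (1.12) and Tmed1 (0.95), and Ergic1 (0.99). Those that fell included Mia2 (-0.79) and Mia3 (-0.52), which help load very large cargo, and Sar1b (-0.72), the GTPase needed for chylomicron export. Sar1b was at 125 ± 7.6 CPM in WT libraries against 76.6 ± 16.5 CPM in Rank-knockout, while Sar1a had a log2 fold change of -0.21 (SE 0.14). Of the COPI coat and KDEL receptor list 4 of 15 fell, 26.7% beside the same 14.6% (Arfgap3 -0.72, Copb2 -0.45 and Gbf1 -0.42 the first by p), and the count was 1 with library totals and 2 without WT replicate 2 or without Rank-knockout replicates 1, 3 or 4.

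Among PERK, ATF4 and other UPR regulators 6 of 22 fell and none rose, 27.3% beside 14.6% of all tested genes called lower. Trib3, a target of ATF4 and CHOP, fell by 1.13, Creb3l3, a liver and gut relative of ATF6, fell by 1.06, and Creb3l2, another relative, fell by 1.12. Ddit3, which encodes CHOP, was at 91.7 ± 17.9 CPM in WT libraries against 62.6 ± 8.86 CPM in Rank-knockout (-0.56, SE 0.17, edgeR adjusted p = 0.019). GENCODE holds 2 overlapping models of Ddit3, the values are those of the older identifier, and reads shared by both models may not have been counted. Atf4 itself was not called (0.24, SE 0.13, edgeR adjusted p = 0.19), nor was Eif2ak3, which encodes PERK (-0.23, SE 0.22). In other genes of ER-phagy and ER shape 2 of 15 were called lower, 13.3% beside 14.6% of all tested genes, the receptor Ccpg1 (-0.98, SE 0.24, edgeR adjusted p = 0.0068) and Atl2 (-0.56), with 1 left without WT replicates 1, 3 or 4 or without Rank-knockout replicates 1, 2 or 3. Of 20 chaperones of the cytosol and mitochondria 18 rose and none fell, with a median log2 fold change of 0.79, beside 0.38 in the ER chaperones, and with Hspd1 at 1.11, Hsp90ab1 at 1.07 and Hsph1 at 1.12.

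**Figure D5:**
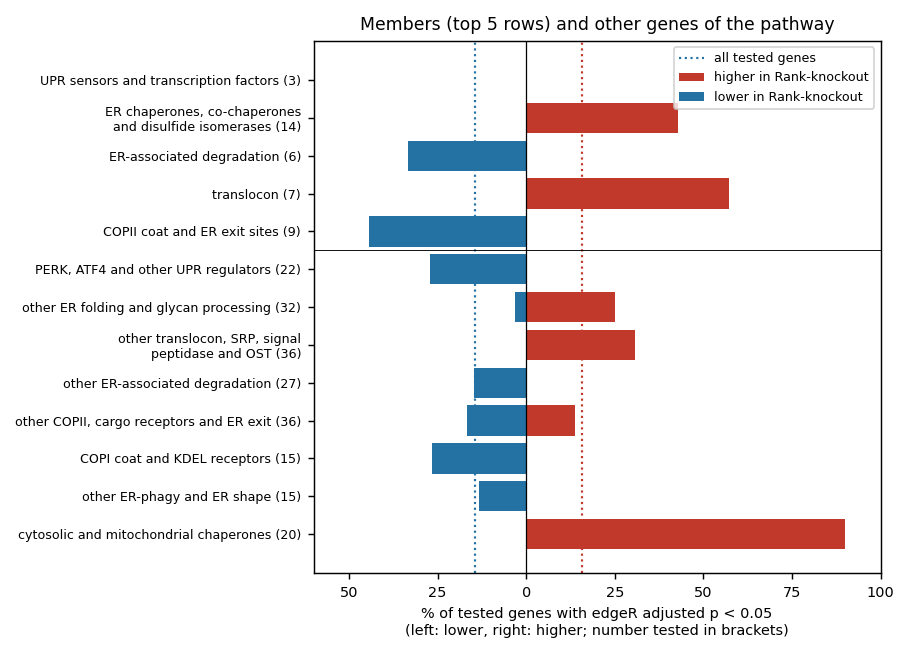
Share of tested genes (x axis, %) called higher (red, right) and lower (blue, left) in Rank-knockout, for 5 role groups of members above the line and 8 lists of other genes below it, with the number tested in brackets. Dotted lines mark all tested genes (15.8% higher, 14.6% lower), and the cytosolic and mitochondrial chaperones reach 90.0% higher.

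Markers of cell position differed between the genotypes as well. All 12 villus enterocyte markers fell, from a summed level of 17610 to 24040 CPM in WT to 7740 to 11070 CPM in Rank-knockout, and 14 of 16 crypt and cell cycle markers rose, from 813 to 1178 CPM to 1792 to 3022 CPM. Apoa4, a villus apolipoprotein, went from 8891 ± 696 to 3975 ± 903 CPM, and Mki67, a proliferation marker, from 29.5 ± 5.22 to 65.0 ± 17.4 CPM. Of the secretory lineages 4 of 9 tested Paneth markers rose (2319 to 5084 CPM in WT, 3254 to 10430 CPM in Rank-knockout) and 4 of 10 goblet markers fell while 1 rose (13180 to 17700 CPM and 7365 to 10150 CPM). Of 8 tested enteroendocrine markers 0 were called by edgeR and 1 had an unadjusted p under 0.05 (518 to 616 CPM in WT, 422 to 719 CPM in Rank-knockout). The part of cell position and of these lineages in the changes of ER and COPII genes was not tested.

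Plasma cells, which have a large ER, and other cells of the gut wall were read by their markers too. The summed level of 10 plasma and B cell markers was 160 to 269 CPM in WT and 137 to 171 CPM in Rank-knockout, but much of it came from Sdc1, which epithelial cells also express (mean 103 and 118 CPM). Without Sdc1, a choice made after seeing the data, the other 9 summed to 56.7 to 156 CPM in WT and 9.89 to 54.4 CPM in Rank-knockout, which did not overlap. Cd79a was at 0 counts in every library and Mzb1, an ER chaperone of plasma cells, at 1.99 ± 0.75 CPM in WT libraries against 0.84 ± 0.68 CPM in Rank-knockout. Of 3 tested plasma and B cell markers 1 was called, Igkc, which fell (-1.90, edgeR adjusted p = 0.0091). The 8 T cell markers summed to 183 to 280 CPM in WT and 123 to 198 CPM in Rank-knockout with none of 6 tested called, and the 10 stromal markers to 5.33 to 8.22 CPM and 2.25 to 12.01 CPM with none tested. The part of these cells in the changes of the members was not tested.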

How the data were processed

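The deposited values are raw counts of reads per gene in 8 libraries. As its methods state, the authors trimmed with BBDuk, removed ribosomal, mitochondrial, phiX and adapter reads with bowtie2, aligned the rest to GRCm38 (mm10) with STAR and Ensembl annotation, and counted sense-strand reads with featureCounts. For these 3′ libraries no source speaks of molecular identifiers, so a PCR copy counts as a read, and reads shared by near-identical genes can be lost or split.

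Symbols and positions came from GENCODE M21 (GRCm38), where 54495 of 54532 identifiers were found. Of all genes 33764 had 0 counts in every library. The counts went into edgeR 4.0.16 (R 4.3.3) (filterByExpr, TMM, robust quasi-likelihood F-test, genotype as the only term), with Benjamini-Hochberg adjustment over 9855 genes and a threshold of 0.05. SE was derived from the F statistic. CPM values use library sizes over the tested genes. The 17 alternatives covered library totals, RLE scaling, the 50 most abundant genes left out of the library sizes, no filter on low counts, a minimum mean CPM of 5, limma-voom (limma 3.58.1), DESeq2 1.42.0, the replicate number as a block, thinning to the shallowest total, and each library left out in turn. Gene pairs were compared by the log2 ratio of counts, with 0.5 added to each, in an exact two-sided permutation test.

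The members, the pathway lists and the cell type markers were chosen with earlier results of these data known. All 41 members are named, with up to 3 genes of each other pathway list per direction by smallest p among the called, of the marker lists a few genes that define a cell type, whatever their p, both genes of each pair, and Ddit3, Atf4 and Eif2ak3, named as known parts of the PERK branch. A same-strand gene overlapped 8 members, in no case at the 3′ end. No pair of libraries of one genotype agreed within sampling noise (chi-square per degree of freedom 3.97 to 22.2). The test scripts were tested on simulated data. Counting error is larger in the shallower libraries, and p-values cover the spread between mice of one experiment.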

Additional observations from a re-analysis of the deposited data

Results flagged for a closer look

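In groups of 4 libraries, 9 of 102 sets of values had 1 library far from the others by Dixon's test at the 95% level, where chance alone gives about 5.1. In WT, replicate 2 stood apart for Xbp1 (54.2 CPM, the others at 131.5 to 140), for Herpud1 (785 CPM, the others at 423 to 482), for the log2 ratio of Hspa5 to Hsp90b1 (2.84, the others at 2.12 to 2.15), for Derl3 (0.253 CPM from 1 count, the others at 0) and for the total count (4335653, the others at 1530781 to 1616024). WT replicate 3 stood apart for Sel1l (303 CPM, the others at 342 to 345.5). In Rank-knockout, replicate 2 stood apart for Derl2 (106 CPM, the others at 89.6 to 91.9) and Derl3 (1.501 CPM, the others at 0 to 0.212), and replicate 4 for Sec23a (145.5 CPM, the others at 102 to 105).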

How the results depend on the processing

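The count of members called higher was 10, and it became 18 with library totals; the count called lower was 7, and it became 4 with library totals and 4 without the 50 most abundant genes. Leaving out each library in turn gave 4 to 9 members higher and 4 to 9 lower, with 4 higher without WT replicate 4, 6 without Rank-knockout replicate 1, and 4 lower without Rank-knockout replicates 1 or 3. Both counts were within 1.5 times the reported ones under the other alternatives. The cause of these shifts was not tested. Fits with a library left out hold fewer samples, and the 2 scalings shift all genes. Of the called members 4 of 10 higher (Hsp90b1, Pdia6, Manf, Ssr1) and 4 of 7 lower (Sec23a, Sec24d, Sec31a, Retreg1) kept their call under all 17 alternatives, and of 23 not called 12 stayed so. Same-numbered libraries of both genotypes deviated together with correlations of 0.05, 0.15, -0.14 and 0.32, so the numbers were not taken to pair them, and not every library correlated best with its own number. With the replicate number as a block 12 members were called higher and 7 lower. Depth limited Derl3, with 1 count in WT and 5 in Rank-knockout. With all libraries thinned to the shallowest total 10 members were called higher and 9 lower.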
